A study of Rattus norvegicus with 19 samples.

Results

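Cortex-higher TAPEs are the transcriptionally active putative enhancers (TAPEs) of cultured rat brain neurons whose RNA was at least 2 times as abundant in cortical cultures as in both hippocampal and striatal cultures. A TAPE is a stretch of open chromatin outside annotated genes from which RNA was read on both strands. Its level is given as CPKM, reads per kilobase of TAPE and per 1000000 reads of the library. Members were chosen on those CPKM values alone, as TAPEs with a mean of at least 0.02 CPKM over all 19 libraries and a cortical mean at least 2 times each of the other 2 regional means. The rule kept 265 of 27538 TAPEs, or 265 of the 5017 that reached the level floor. Differences between cortex and the other regions at these TAPEs therefore follow from the choice and are given as a description.

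The 19 total RNA-seq libraries came from primary neurons of Sprague-Dawley rat embryos taken at embryonic day 18. Cells of cortex, hippocampus or striatum were grown for 11 days in vitro and then given neurobasal medium (vehicle) or potassium chloride (KCl, which depolarizes neurons) for 1 h. The cultures were not sorted, so each can hold several cell types. Each region and treatment had 3 libraries, except striatum vehicle with 4, so cortex had 6 libraries, hippocampus 6 and striatum 7. The study's own lists split the striatum libraries between vehicle and KCl in another way, and the titles were followed here. The sample labels give KCl as 25 mM and the series text as 10 mM, and the values cannot settle which was used. Cortex vehicle replicate 3 was grouped as cortical from its title, although its tissue label says striatum. Over the 251 TAPEs that the same rule chose without that library, its summed level was 26.8 CPKM. The other cortex libraries summed to 23.8 to 27.2 CPKM, the hippocampus libraries to 6.31 to 9.38 and the striatum libraries to 6.31 to 7.94. Nothing in the labels says whether the replicates of a group came from separate cultures, so p-values measure the spread between these libraries only.

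Active enhancers are copied into short, unstable enhancer RNAs, and the amount of this RNA is widely read as a sign of how active the enhancer is in a cell type. Enhancers act on promoters in cis, often over long distances and sometimes past a nearer gene. In the cerebral cortex the main excitatory cells are projection neurons, whose identity is set by transcription factors such as Tbr1, Sox5 and the Neurod family. Hippocampal pyramidal and granule cells share part of that programme, whereas most striatal neurons are GABAergic medium spiny neurons with a different set of regulators. In bulk cultures, fewer cells of a type and less RNA per cell cannot be told apart.

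The sequences shown first are those of genes with a start site close to a member, since no genome of the build of the TAPE coordinates was used here. Neurod2 and Neurod6 are basic helix-loop-helix factors of excitatory forebrain neurons, a class that binds E-boxes. Their promoters are printed because a member lay 6.86 kb from the Neurod2 start site and a pair of members lay within 100 kb of the Neurod6 start site. Both are from RefSeq (assembly GRCr8), with 250 bases before and 50 bases after the start. The letters in capitals mark CAGATG, an E-box of the kind Neurod factors bind, searched on both strands (CATCTG on the other strand), with no other motif searched. The Neurod2 promoter (GRCr8 chr10:83824228-83824527, minus strand) held 1 match and the Neurod6 promoter (GRCr8 chr4:86180106-86180405, minus strand) held 2. A match was found in 16.6% of the 33469 RefSeq rat promoters of that length, and 234 of the 313 genes near members had a promoter in the table.
Neurod2: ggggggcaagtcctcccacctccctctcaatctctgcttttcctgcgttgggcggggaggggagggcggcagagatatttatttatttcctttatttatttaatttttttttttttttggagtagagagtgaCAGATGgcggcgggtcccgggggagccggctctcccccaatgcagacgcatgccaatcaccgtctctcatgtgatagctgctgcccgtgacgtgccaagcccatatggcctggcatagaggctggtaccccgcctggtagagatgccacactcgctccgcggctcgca
Neurod6: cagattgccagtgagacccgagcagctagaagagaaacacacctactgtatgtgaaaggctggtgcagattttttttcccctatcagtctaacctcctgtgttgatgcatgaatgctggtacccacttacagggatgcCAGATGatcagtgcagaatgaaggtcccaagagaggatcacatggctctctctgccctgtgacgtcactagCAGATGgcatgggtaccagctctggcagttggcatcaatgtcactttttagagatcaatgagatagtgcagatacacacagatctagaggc

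A member lay 5.80 kb from the start site of the microRNA gene Mir181b2 and 6.90 kb from that of Mir181a2, which share 1 locus and were chosen for display after their values were seen. MicroRNAs of this family are abundant in brain, and target messages are recognized through the seed, bases 2 to 8, shown in capitals. The mature forms from RefSeq (GRCr8) share that seed. The coordinates for miR-181a-5p are those of this locus (GRCr8 chr3:43025601-43025623, plus strand). The table lists miR-181b-5p at a second locus (GRCr8 chr13:52037263-52037285, plus strand), and the same letters were found in the Mir181b2 hairpin.
rno-miR-181a-5p: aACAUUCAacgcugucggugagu
rno-miR-181b-5p: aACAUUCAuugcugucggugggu

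Members were weakly transcribed, as most TAPEs were. Library totals ran from 46.4 M to 72.5 M reads, and 672 to 4356 reads per library lay in the 265 members. The median member held 67 reads over the 19 libraries, with a range of 26 to 1964. Its median length was 1768 bp (1149 to 11173 bp). The regional means had a median over members of 0.0645 CPKM in cortex (0.0332 to 1.03), 0.0189 in hippocampus and 0.0157 in striatum. The median ratio of cortex to the higher of the other regions was 2.63. All 6 cortex libraries lay above all 13 others at 42 members (15.8%), beside 0.917% of all TAPEs at the level floor, and this difference follows from the choice. At the rest, at least 1 library of another region reached the lowest cortex library. No read was seen in any striatum library at 18 members and in any hippocampus library at 5, and 75 members had at least 1 cortex library at 0. A pair of members on chromosome 6 overlap and share reads, which leaves 1 fewer independent region.

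The 3 members just inside the 2-fold limit had ratios to the next region of 2.0, 2.01 and 2.02. The closest of them, chr10:15781864-15783868 (Rn6), averaged 0.0523 ± 0.0219 CPKM in cortex (SD, n = 6) and 0.0261 in hippocampus. The 3 TAPEs just outside had ratios of 1.99, 1.99 and 1.99, and the closest of them, chr10:58384548-58386198, averaged 0.288 ± 0.0954 CPKM in cortex and 0.144 in hippocampus. The limit thus cut through a continuous range. Leaving out 1 library at a time gave 234 to 288 TAPEs, and 134 of the 265 stayed in the set whichever library was left out. Applied to vehicle libraries alone the rule gave 337 TAPEs, of which 173 were members, and applied to KCl libraries alone it gave 434, of which 167 were members.

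The members with the highest cortical levels are shown first. The TAPE 8.31 kb from the start site of Mpped1, a metallophosphoesterase gene, lies at chr7:124669911-124674064 (Rn6) and held 1964 reads. Its CPKM in vehicle cortex was 0.830, 0.790 and 1.19, and in KCl-treated cortex 0.731, 0.773 and 0.817. Hippocampus libraries ran from 0.0241 to 0.104 with a median of 0.0530. Striatum libraries ran from 0.198 to 0.516 with a median of 0.335, so the order was cortex, striatum, hippocampus and no library of 1 region reached the range of another. At the TAPE 27.0 kb from Scp2d1 (chr3:139000963-139002722) the cortex libraries ran from 0.650 to 0.956 (median 0.879). Its hippocampus libraries ran from 0.261 to 0.563 (median 0.351) and its striatum libraries from 0.231 to 0.414 (median 0.343), so the latter regions overlapped each other and neither reached cortex.

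The next in level had no gene within 100 kb or a gene at some distance. A TAPE on chromosome 17 (chr17:74780284-74782231), 571 kb from the nearest start site, that of the RNA-binding protein gene Celf2, ran from 0.544 to 1.17 CPKM in cortex (median 0.723). Hippocampus ran from 0.180 to 0.389 (median 0.316) and striatum from 0.116 to 0.346 (median 0.248) there. A pair of TAPEs 156 and 161 kb from the start of Ptprd, a receptor tyrosine phosphatase of synaptic adhesion, had cortical means of 0.576 ± 0.142 and 0.527 ± 0.140 CPKM (SD, n = 6). The first overlapped with the other regions, since its lowest cortex library (0.346) fell below its highest striatum library (0.376), and the second did not overlap. The TAPE 39.3 kb from Tmem44 (chr11:73776517-73778881) ran from 0.327 to 0.692 CPKM in cortex (median 0.442), above every hippocampus library (0.0592 to 0.190) and every striatum library (0.0878 to 0.223).

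**Figure D1:**
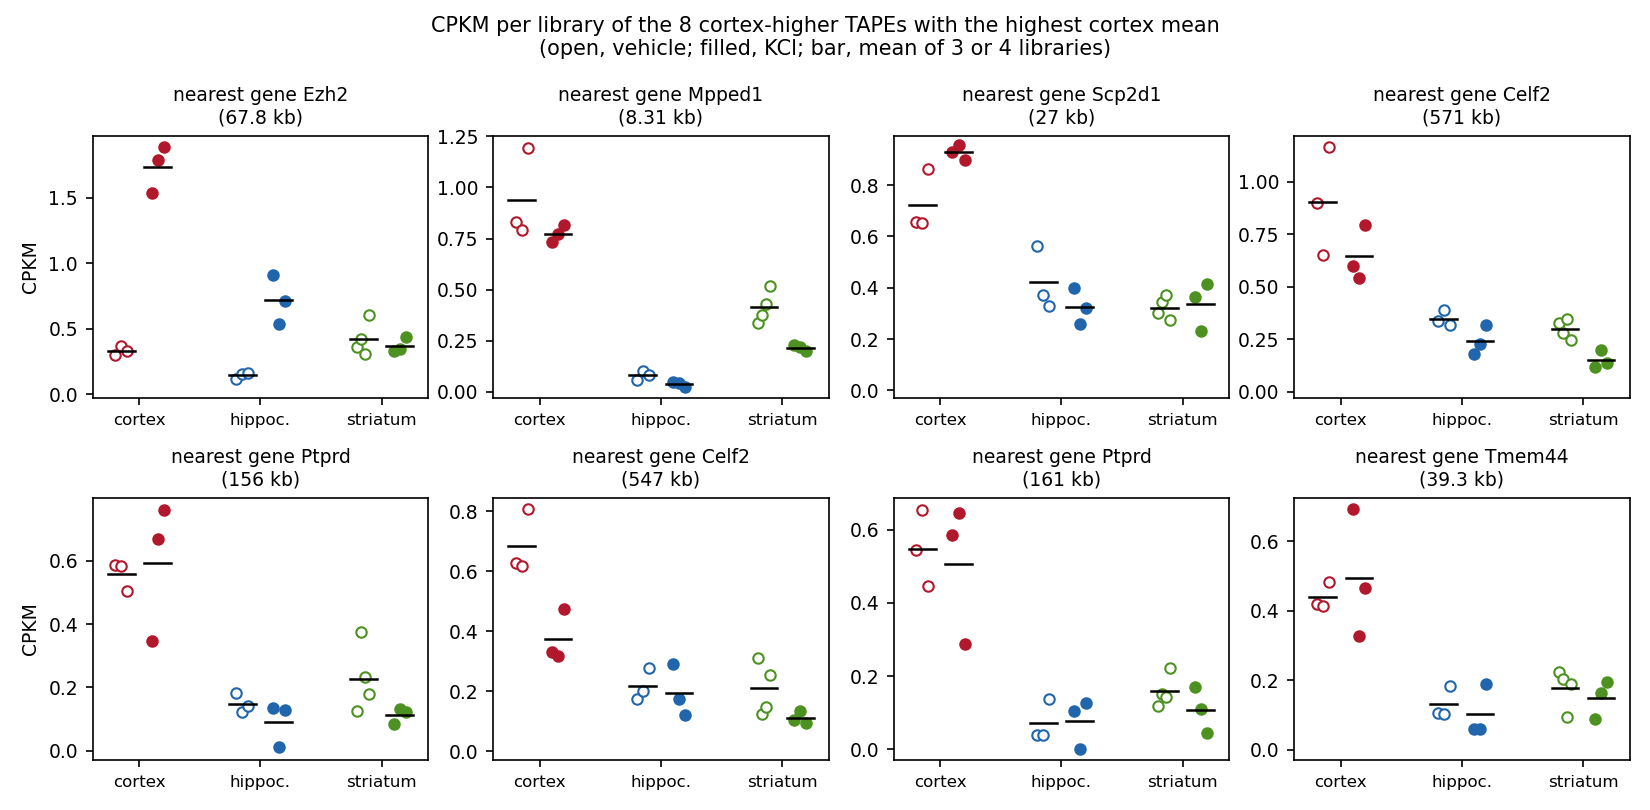
CPKM per library (y axis) by region (x axis) for the 8 cortex-higher TAPEs with the highest cortical mean. Open points are vehicle libraries, filled points KCl libraries and bars group means of 3 or 4 libraries. Cortex lies above both other regions in most panels, and the KCl libraries of cortex and hippocampus stand apart from vehicle at the Ezh2 TAPE, where cortex means were 0.332 and 1.73.

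Members were also ranked by the ratio of the cortical mean to the higher of the other means after 0.05 CPKM was added to both, which lowers the ratio of weak members. The TAPE 95.4 kb from Ackr3, an atypical chemokine receptor gene (chr9:97259914-97261082), had 49 reads, all in cortex, where libraries ran from 0.0144 to 0.200 CPKM with a median of 0.115. The TAPE 55.3 kb from Ptpn20 (chr16:9851657-9852857) ran from 0.134 to 0.320 CPKM in cortex (median 0.244), with a highest value of 0.106 in hippocampus and 0.0575 in striatum. Of the 8 members ranked highest in this way, 4 lay together on chromosome 13.

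Whether cortex exceeded the other regions in libraries that had no part in the choice was tested by choosing in one treatment and testing in the other. This test was added once the data had been seen. The labels do not say whether vehicle and KCl libraries of a region came from separate cultures. The tested libraries may therefore not be independent of those used to choose. The rule applied to vehicle libraries gave 337 TAPEs. In the KCl libraries, 25 of them (7.42%) were higher in cortex than in both hippocampus and striatum at an adjusted p under 0.05 in limma, beside 0.699% of the 5438 TAPEs tested. Cortex had the highest mean of the 3 regions at 237 of them (70.3%, beside 34.6% of all tested) and was again at least 2-fold higher at 140 (41.5%, beside 9.65%). Their median log2 difference was 0.35 over hippocampus and 0.45 over striatum, beside 0.07 and 0.03 for all TAPEs tested. The count rested on the full set of libraries, since it was 7 to 16 when any 1 of the 9 KCl libraries was left out, and lowest without striatum KCl replicate 7.

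In the other direction, 434 TAPEs were chosen in KCl libraries, and 37 of them (8.53%) passed both tests in vehicle libraries, beside 0.868% of the 4953 tested. Cortex was highest at 266 (61.3%, beside 29.7%) and at least 2-fold higher at 144 (33.2%, beside 6.95%). None was called lower in cortex than both other regions in either direction. Without cortex vehicle replicate 3, the library with 2 tissue labels, 22 passed. The count was also 22 without cortex vehicle replicate 1, 20 without hippocampus vehicle replicate 1, and 24 without hippocampus vehicle replicate 2 or 3. In all 45 TAPEs passed in at least 1 direction and 17 of them in both. Of the 45, 44 were members, which says little, since the rule for members used the libraries of both treatments. The Mpped1 TAPE was among the 17, with a log2 difference over hippocampus of 3.24 in KCl libraries and 2.89 in vehicle libraries. It was named for its mean over all cortex libraries, which include those tested, so no p-value is given for it.

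Members lay at all distances from genes up to 1 Mb, the reach of the deposited pairs of TAPEs and genes. The authors removed pairs whose gene had no reads in any sample, so start sites of such genes are not seen. TAPEs with no other gene in reach would be absent from these pairs. The distance from the TAPE centre to the nearest start site had a median of 95.8 kb, beside 53.0 kb for all TAPEs at the level floor, 62.9 kb for the 368 TAPEs higher in hippocampus and 71.3 kb for the 691 higher in striatum by the same rule. A start site lay within 100 kb of 136 members (51.3%, beside 65.2% of TAPEs at the floor) and within 10 kb of 25 members (9.43%, beside 14%). The nearest start site was more than 500 kb away at 26 members (9.81%, beside 4.88%). These shares are descriptions of sets chosen on levels, and the difference was not tested.

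Gene RNA was not used to choose the TAPEs, so it could be tested. Per-library gene values were recovered from the deposited correlations between TAPEs and genes, as a standardised level in SD units over the 19 libraries, with no fold change. The 313 genes with a start site within 100 kb of a member included 310 with a recovered profile. By an exact two-sided permutation test of 6 cortex against 13 other libraries with Benjamini-Hochberg adjustment, 65 of the 310 (21.0%) were called higher in cortex, beside 12.2% of all 16733 genes, and 13 (4.19%) were called lower, beside 9.97%. Leaving out 1 library at a time gave 59 to 67 higher. Tested against hippocampus and against striatum separately, 53 (17.1%) were higher in cortex both times, beside 8.78% of all genes. In 35 genes all 6 cortex libraries lay above all 13 others, which was so for 5.38% of all genes. At 69 of the 134 members with a recovered gene in reach, at least 1 gene was higher in cortex, at 13 at least 1 was lower, and at 55 neither was seen. The nearest gene was higher at 52 of the 134 and lower at 5. These counts of members are a description, since the same share was not counted over all TAPEs at the floor. They hold some genes more than once, as 23 genes lay within 100 kb of 2 or more members.

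The share of cortex-higher genes fell with distance from the closest member. It was 14 of 27 genes (51.9%) at up to 10 kb, 23 of 110 (20.9%) at 10 to 50 kb and 28 of 173 (16.2%) at 50 to 100 kb. Farther out it was 17.3% at 100 to 250 kb, 12.5% at 250 to 500 kb and 13% at 500 to 1000 kb. Within 10 kb of any TAPE at the level floor the share was 13.1%, within 10 kb of a hippocampus-higher TAPE 11.6%, and within 10 kb of a striatum-higher TAPE 6.59%. No gene within 10 kb of a member was called lower in cortex. TAPE and gene values come from the same libraries, and whether transcripts of a gene reach into a nearby TAPE was not tested.

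**Figure D2:**
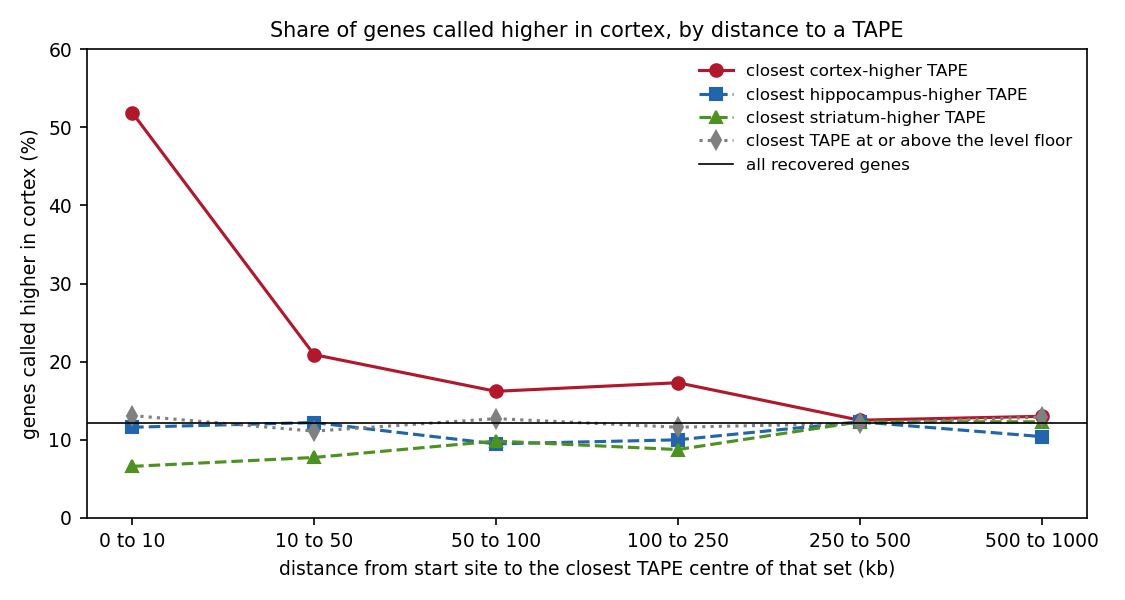
Share of genes called higher in cortex (%, y axis) by distance of the start site to the closest TAPE of a set (kb, x axis), for cortex-, hippocampus- and striatum-higher TAPEs and all TAPEs at the level floor, with all genes as a horizontal line. The cortex-higher line starts at 51.9% within 10 kb and reaches 13% at 500 to 1000 kb, while the other lines stay between 6.59% and 13.1%.

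Several genes near members encode transcription factors. RNA of Tshz2, a zinc finger homeobox gene with members 9.26 and 59.0 kb from its start, stood at 1.11 to 1.61 SD units in cortex (median 1.48), -0.729 to -0.584 in hippocampus and -0.739 to -0.557 in striatum (adjusted p = 0.000555, exact permutation). Every cortex library lay above all others and the other regions overlapped. The nearer Tshz2 TAPE (chr3:166751973-166753640) had 0.0613 ± 0.0292 CPKM in cortex, 0.0106 ± 0.0116 in hippocampus and 0.0222 ± 0.0279 in striatum (SD), and the libraries of the regions overlapped. The value 0.000555 is the smallest adjusted p that this test gave.

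Neurod2 and Neurod6 had another pattern, high in both cortex and hippocampus. Neurod2 RNA stood at 0.470 to 1.31 SD units in cortex (median 0.862), 0.323 to 0.760 in hippocampus (median 0.549) and -1.25 to -1.23 in striatum, so cortex and hippocampus overlapped (cortex against the rest, adjusted p = 0.0401, exact permutation). Against hippocampus alone the adjusted p was 0.114. Its TAPE (chr10:86275020-86276652) followed that order, at 0.0660 ± 0.0360 CPKM in cortex, 0.0322 ± 0.0249 in hippocampus and 0 in all 7 striatum libraries. Neurod6 RNA stood at 0.686 to 1.02 in cortex (median 0.942), 0.417 to 0.715 in hippocampus (median 0.607) and -1.26 in striatum (adjusted p = 0.0452, and 0.0188 against hippocampus). Its members at 12.7 and 26.7 kb averaged 0.0992 ± 0.0380 and 0.0614 ± 0.0505 CPKM in cortex, 0.0354 ± 0.0321 and 0.00511 ± 0.00603 in hippocampus, and 0.0178 ± 0.0204 and 0.00179 ± 0.00475 in striatum.

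Other genes with the largest differences encode proteins of several kinds, and all had every cortex library above the rest at an adjusted p of 0.000555. They were Scube1, a secreted EGF-domain protein, and Mpped1, both near the TAPE described above, Eml1, a microtubule-binding protein, Plxnc1, a semaphorin receptor, Sncaip, the synuclein-interacting protein, Samd11, Lhfpl6 and Sox8. Their cortex means lay between 1.39 and 1.42 SD units. Mpped1 RNA followed the order of its TAPE, at 1.27 to 1.5 in cortex, -0.534 to -0.449 in striatum and -0.874 to -0.834 in hippocampus. The 3 lower genes with the largest differences were Gjd2, the neuronal gap junction gene, Fam167a and Pafah2, 33.9, 47.7 and 49.1 kb from a member. Gjd2 stood at -1.26 to -1.08 in cortex and 0.993 to 1.47 in hippocampus (adjusted p = 0.00095), the reverse of its TAPE.

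**Figure D3:**
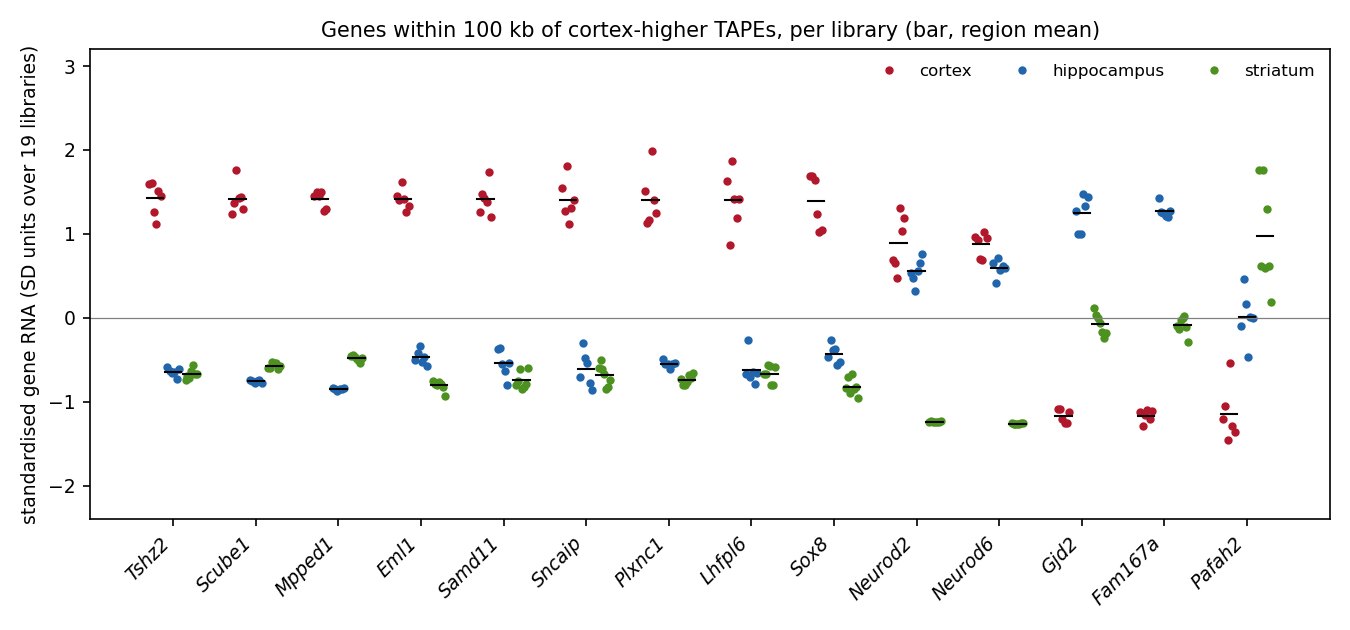
Standardised gene RNA (SD units over 19 libraries, y axis) for 14 genes within 100 kb of a cortex-higher TAPE (x axis), with 1 point per library and a bar at each region mean. Cortex points of the 9 leading genes lie apart above the rest, Neurod2 and Neurod6 are high in cortex and hippocampus, and Gjd2, Fam167a and Pafah2 are low in cortex.

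Several high members had no nearby gene of the same pattern. Ackr3 RNA averaged -0.55 SD units in cortex, -0.82 in hippocampus and 1.17 in striatum (adjusted p = 0.248), although its TAPE gave reads in cortex only. With the regions in that order, Scp2d1 (0.22, -0.75 and 0.46, adjusted p = 0.725), Ptpn20 (-0.59, 0.42 and 0.14, adjusted p = 0.218) and Pdia4 (-0.37, -1.02 and 1.19, adjusted p = 0.491) were not called either. Ezh2, the histone H3 lysine 27 methyltransferase, was called higher in cortex (0.312 to 1.5 SD units, median 1.02, adjusted p = 0.0109) with overlap to striatum (-0.243 to 0.924). Ppp1r1b, which encodes the striatal signalling protein DARPP-32 and lies 27.9 kb from the Neurod2 TAPE, stood at 1.16 to 1.36 in striatum and -0.761 to -0.724 in the other regions.

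Regulators of cortical projection neurons were compared as a group. This list and those below were chosen with earlier results of these data known, so their shares are a description and not a test. Of 34 of them 33 had a profile, of which 19 were called higher in cortex and 0 lower, beside 12.2% and 9.97% of all genes, with a median difference of 1.28 SD units (all genes -0.13). Against hippocampus and against striatum separately, 17 were higher both times (51.5%, beside 8.78% of all genes). Of the 34, 5 (14.7%) had a start site within 100 kb of a member, beside 1.77% of all 17715 gene symbols. Only 5810 of all symbols lay within 100 kb of any TAPE at the level floor, and that was not counted for the list. Among the 5 were Tshz2, Neurod2, Neurod6 and Nfia. Nfia, a nuclear factor of glial and neuronal development, was highest in hippocampus (0.749 to 1.51 SD units) and stood at -0.00245 to 0.399 in cortex (adjusted p = 0.619). Of the other higher regulators, Tbr1, Sox5, Rorb, Pou3f1 and Id2 had an adjusted p of 0.000555 and no member within 100 kb. Kcnf1, a potassium channel subunit gene that the study used as a cortical example, was called higher and had no member within 100 kb. Of 28 axon guidance and adhesion genes with a profile, 11 were higher and 4 lower in cortex, and of 20 activity-induced genes 1 was higher and 1 lower.

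Markers of other cell types, also chosen with earlier results of these data known, moved with region as well. Calls compare cortex with the other regions pooled, and over all genes 12.2% were higher and 9.97% lower. All 7 cortical projection neuron markers were higher in cortex, 6 of them also against hippocampus and striatum separately. Of 4 hippocampal and 10 striatal markers 0 were higher, and 5 of 8 interneuron and 2 of 10 striatal markers were lower. Of 6 oligodendrocyte lineage markers 3 were higher in cortex (Olig2, Pdgfra and Mbp), 2 of them also against each region separately, and 0 lower. Their mean level per library ran from 0.525 to 1.23 SD units in cortex, -0.088 to 0.428 in hippocampus and -1.08 to -0.398 in striatum. Of 5 astrocyte markers 2 were higher (Aldh1l1 and Gja1), and their mean ran from 0.488 to 0.680 in cortex, 0.474 to 0.708 in hippocampus and -1.08 to -0.922 in striatum. Of 4 microglial markers 1 was higher, though not against each region separately. Of 2 endothelial and 4 Cajal-Retzius markers none was called, and of 4 fibroblast or meningeal markers 1 was higher and 2 were lower. Cortex-higher genes near members included Sox8, 4.95 kb away, at 1.02 to 1.69 in cortex, -0.564 to -0.259 in hippocampus and -0.951 to -0.674 in striatum. They also included Nkx2-2 (7.88 kb), Sox9 (96.1 kb) and Ntsr2 (9.27 kb), named after their values were seen, which are known from oligodendrocyte or astrocyte lineages. The part of these cells in the levels of members was not tested.

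Other genes within 10 kb of a member that were higher in cortex are listed after their values were seen. They were Id1, an inhibitor of basic helix-loop-helix factors (3.13 kb), Hrh1, the histamine H1 receptor (5.08 kb), Mir181b2 (5.80 kb, adjusted p = 0.0286), Prdm16, a zinc finger regulator (9.30 kb), and Plekhf1 (9.89 kb, adjusted p = 0.0337). Mir181b2 ran from -0.758 to 2.68 SD units in cortex, and its lowest cortex library equalled the lowest of both other regions. Mir181a2 in the same locus was not called (adjusted p = 0.192). Reads of a microRNA gene cannot be told apart from those of a longer transcript over it.

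Weaker TAPEs around members, which the rule could not choose, followed the same order of regions. There were 503 TAPEs below the level floor at 10 to 100 kb from a member. Their summed reads per 1000000 library reads ran from 9.16 to 13.9 in cortex (median 10.6), from 6.30 to 8.53 in hippocampus (median 7.71) and from 5.50 to 7.39 in striatum (median 6.17). Each cortex library lay above each of the others, and the cortex mean was 1.59 times that of the other libraries. These TAPEs were picked by distance from members chosen on the same libraries. A permutation of the libraries cannot test this difference, which is given as a description. The ratio was 1.63 in vehicle libraries and 1.57 in KCl libraries. It ran from 1.51 to 1.65 when 1 library was left out. The ratio was 1.71 at 10 to 50 kb, 1.47 at 50 to 100 kb, 1.24 at 100 to 250 kb, 1.15 at 250 to 500 kb and 1.09 at 500 to 1000 kb. Over all 22521 TAPEs below the floor the ratio was 1.02. The sets higher in hippocampus and in striatum showed a like pattern. Summed reads of TAPEs below the floor within 100 kb of hippocampus-higher TAPEs averaged 24.8 in hippocampus, 16.1 in cortex and 13.2 in striatum. Within 100 kb of striatum-higher TAPEs they averaged 34.1 in striatum, 22.7 in cortex and 21.9 in hippocampus. The pattern around members is thus not particular to cortex. The comparison was also added once the data had been seen.

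Some members lay close together along the chromosomes. Another member lay within 100 kb of 37.7% of them (95% Wilson interval 32.1 to 43.7%), beside 31.0% for hippocampus-higher and 39.9% for striatum-higher TAPEs. The interval treats members as independent, although neighbours come in pairs or larger groups, so it is likely too narrow. Such a share also depends on how many TAPEs a set holds, and was 63.3% for all 5017 at the floor. The sets differ in size, so these shares do not rank them by clustering. Members formed 34 groups of at least 2 when centres up to 100 kb apart were linked. Of these groups 15 held 3 or more, with 62 members in all. Of the 345 TAPEs at the level floor within 100 kb of a member, 100 (29.0%) were themselves members, 4 (1.16%) were hippocampus-higher and 13 (3.77%) striatum-higher. All 5017 TAPEs at the floor held 265, 368 and 691 of these sets. The other sets had like shares. Hippocampus-higher TAPEs were 28.3% of those at the floor around their own set, and striatum-higher TAPEs 34.9% around theirs. Members were found on 21 chromosomes. Chromosome 13 held 24 among its 166 TAPEs at the floor (14.5%), and chromosome 12 held 1 among 147 (0.680%).

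The largest group had 12 members on chromosome 13 (chr13:87302516-87574197, a span of 272 kb), where 13 TAPEs reached the floor. Their summed level was 1.89, 1.41 and 2.40 CPKM in vehicle cortex and 1.45, 1.33 and 1.41 in KCl-treated cortex. Hippocampus libraries summed to 0.103 to 0.305 and striatum libraries to 0 to 0.0890, so the regions did not overlap. Single members had cortical means of 0.0499 to 0.216 CPKM, hippocampal means of 0.00292 to 0.0367 and striatal means of 0 to 0.00859. No start site lay within 100 kb. The nearest were those of the kinetochore gene Nuf2 at 274 kb and of the G protein signalling regulators Rgs5 and Rgs4 at 393 and 488 kb.

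**Figure D4:**
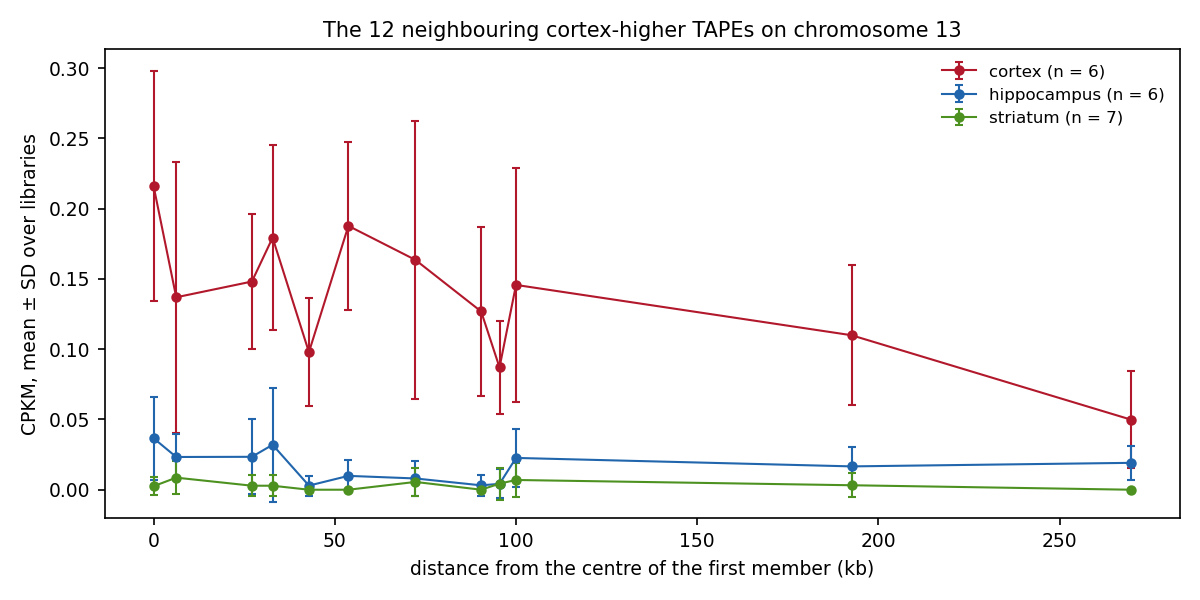
CPKM (y axis, mean ± SD over libraries) of the 12 neighbouring members on chromosome 13 by distance of their centres from the first (kb, x axis), with n = 6 cortex, 6 hippocampus and 7 striatum libraries. Cortical means run from 0.0499 to 0.216, and each lies above the means of the other regions.

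The next 3 groups held 5 members each. The one on chromosome 17 (chr17:74780284-74908163) held all 5 TAPEs at the floor in its span, 445 kb from Celf2 at its nearest, and summed to 1.97 CPKM in cortex, 0.785 in hippocampus and 0.649 in striatum. The one on chromosome 6 (chr6:107887600-107961878) summed to 0.468, 0.0819 and 0.0281, includes the overlapping pair, and lies 38.8 kb from Ptgr2 and 71.8 kb from Zfp410. Neither gene was called (Ptgr2 adjusted p = 0.946, Zfp410 adjusted p = 0.679, exact permutation). The other group of 5 lay on chromosome 1 (chr1:51161457-51202414), with no listed start site closer than 334 kb. Of the 4 members on chromosome 13 between 60931935 and 60968593, the nearest start sites were those of Rgs13 at 35.8 kb, which was higher in cortex, and Rgs2 at 83.9 kb.

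Within 1 region, with 3 or 4 libraries a group, the test of KCl against vehicle called few TAPEs of any kind. In cortex 1 of 265 passed an adjusted p of 0.05 in limma, beside 0.0199% of all 5017 TAPEs, which is that same TAPE. It lies at chr4:77413446-77416130, 67.8 kb from the start site of Ezh2. Its CPKM was 0.299, 0.370 and 0.326 in vehicle cortex and 1.53, 1.79 and 1.88 in KCl-treated cortex, a difference on the log2 scale of 2.22 (limma SE 0.17, adjusted p = 0.00843). In hippocampus it was 0.119, 0.154 and 0.162 with vehicle and 0.906, 0.532 and 0.707 with KCl, a difference of 1.95 (SE 0.22, adjusted p = 0.271). In striatum it was 0.361, 0.420, 0.308 and 0.605 with vehicle and 0.331, 0.343 and 0.435 with KCl, a difference of -0.15 (SE 0.22, adjusted p = 0.844). Treatments did not overlap in cortex or hippocampus and overlapped in striatum. With vehicle alone this TAPE was highest in striatum (0.423 ± 0.129 CPKM, SD, n = 4, against 0.332 ± 0.0359 in cortex, n = 3), and in those libraries it did not meet the 2-fold limit, so its KCl values brought it into the set.

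The difference of its response between regions passed the interaction test (limma F-test, adjusted p = 2.06e-05). It was 1 of 2 TAPEs to do so among all tested (0.0399%). It passed in each of the 19 fits that left out 1 library, which called 2 to 3 TAPEs in all. The call within cortex alone was less stable, with an adjusted p of 0.0945 to 0.198 without any 1 of the 3 vehicle libraries or without KCl replicate 2 or 3, while the log2 difference stayed between 2.16 and 2.31 in the 6 fits. In hippocampus the TAPE passed with a floor of 0.05 CPKM (adjusted p = 0.0243), with libraries centred on their medians (adjusted p = 0.00013) and in a single fit of all groups (adjusted p = 2.23e-06). RNA of Ezh2 itself was not called for KCl (adjusted p = 0.508, exact stratified permutation).

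No other member passed in any region. At an unadjusted p under 0.05, 20 members differed in cortex (10 higher and 10 lower, 7.55% beside 8.37% of all TAPEs), 16 in hippocampus (4 higher, 6.04% beside 9.41%) and 20 in striatum (7 higher, 7.55% beside 11.6%). No TAPE at all passed the adjusted test in hippocampus (0%), and of the 3 that passed in striatum (0.0598%) none was a member. Limma voom on the recovered reads called 13 TAPEs (cortex), 0 (hippocampus) and 18 (striatum), of which the Ezh2 TAPE in cortex was the 1 member. Centring libraries on their median turned the hippocampus split to 8 higher and 7 lower and the striatum split to 24 higher and 6 lower, and raised the median over all TAPEs in striatum from -0.11 to 0.01. Members had a median log2 change of -0.10 (cortex), -0.08 (hippocampus) and -0.05 (striatum), beside -0.07, -0.10 and -0.11 for all TAPEs. With centred libraries the medians of members were -0.04 (cortex), 0.02 (hippocampus) and 0.07 (striatum), so their sign in the last 2 regions depended on the scaling, and in striatum the median was 0 without vehicle replicate 8.

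**Figure D5:**
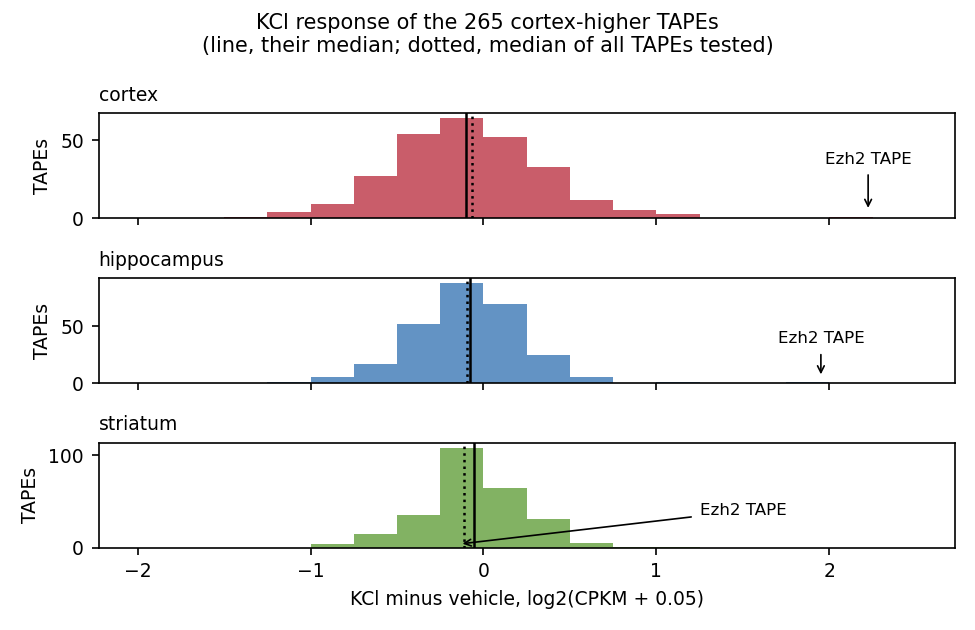
Number of the 265 members (y axis) by KCl minus vehicle difference on the log2(CPKM + 0.05) scale (x axis) in each region. The solid line is the median of members and the dotted line that of all TAPEs tested, -0.10 and -0.07 in cortex, and an arrow marks the Ezh2 TAPE at 2.22, 1.95 and -0.15.

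Beside the Ezh2 TAPE in hippocampus, the members with the smallest p in hippocampus and striatum held few reads in these regions. In hippocampus the TAPE 9.26 kb from Tshz2 was at 0.0212, 0.0207 and 0.0217 CPKM with vehicle and at 0 in all 3 KCl libraries, a log2 difference of -0.51 (SE 0.08, limma adjusted p = 0.271). In striatum a TAPE 864 kb from Arl6 (chr11:41994058-41995330) was at 0 in all 4 vehicle libraries and at 0.0297, 0.0435 and 0.0301 with KCl, a log2 difference of 0.75 (SE 0.10, adjusted p = 0.0718). A TAPE 32.0 kb from Mfsd4a (chr13:48880345-48881624) was at 0 in the striatum vehicle libraries and at 0.0885, 0.0576 and 0.0299 with KCl, a log2 difference of 1.08 (SE 0.21, adjusted p = 0.119). That TAPE had no reads in hippocampus and ran from 0 to 0.118 in cortex. Values of this size stand for a few reads each, and these differences did not pass the test.

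Genes near members were not called for KCl more often than genes in general. Of the 310, 56 (18.1%) differed between KCl and vehicle in an exact permutation test within regions, beside 20.6% of all genes, with 17 higher (5.48%, beside 5.97%) and 39 lower (12.6%, beside 14.7%). The higher ones, named after their values were seen, included Erf, a repressor of the Ets family, Arl4d, a small GTPase, Rgs2, a regulator of G protein signalling, and Myc, each at an adjusted p of 0.00187. Rgs2 stood at -0.747 to -0.504 SD units in vehicle and 1.47 to 1.48 in KCl-treated cortex. Myc, with a member 9.49 kb away, stood at -0.917 to -0.456 in vehicle and 1.39 to 1.54 in KCl-treated cortex. Neurod2 was called higher with KCl (adjusted p = 0.0111) and higher in cortex against the other regions pooled, though not against hippocampus alone. Npy1r, a neuropeptide Y receptor (adjusted p = 0.00187 for KCl), and Sox9 (adjusted p = 0.00603 for KCl) were likewise called higher with KCl and higher in cortex.

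Hippocampus and striatum are set side by side as a description, with no test, since the rule used both means and held each to at most 0.5 of cortex. The mean was higher in hippocampus than in striatum at 168 members (63.4%, beside 43.0% of TAPEs at the floor). The Mpped1 TAPE was the other way round, as described above. A TAPE of chromosome 9 (chr9:11778285-11781371), named after its values were seen, averaged 0.425 CPKM in cortex, 0.198 in hippocampus and 0.0273 in striatum.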

How the data were processed

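Total RNA was depleted of ribosomal RNA and sequenced with strand information as 75 bp paired reads. The authors trimmed reads with Trim Galore 0.4.5, aligned them with STAR to the Rn6 assembly (Ensembl annotation), processed alignments with SAMtools 1.9, derived TAPEs from merged ATAC-seq peaks (MACS2) with RNA on both strands, and counted reads of both strands in SeqMonk without removing duplicates. Deposited TAPE levels are RPKM, called CPKM, and are not log transformed. The deposited correlations between TAPE and gene CPKM are a score from the authors, used here only to solve each gene's standardised profile, which worked for 16733 of 17715 gene symbols.

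CPKM times length and library size gave whole reads (tolerance 0.01 reads) in all 19 libraries, and both mates of a fragment were mostly counted, so 2 reads are often 1 fragment. The interval given for the share of members with a neighbour is binomial, treats members as independent and leaves out the spread between libraries. TAPE tests used limma 3.58.1 in R 4.3.3 on log2(CPKM + 0.05), two-sided, with Benjamini-Hochberg adjustment over the 5017 TAPEs with a mean of at least 0.02 CPKM. This scale understates changes of low TAPEs. KCl was tested within each region on that region's libraries only, and the interaction in all 19. Gene tests were exact two-sided permutation tests, 6 cortex against 13 other libraries or KCl against vehicle within regions (14000 arrangements). Python 3.11.15 with numpy 2.4.6, pandas 2.3.3, scipy 1.17.1 and matplotlib 3.10.9 was used. The limma test of KCl within a region, the gene permutation tests and the recovery of profiles from correlations over all libraries were tried on simulated data. The other steps were not.

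Libraries were grouped by title. Cortex vehicle replicate 3 has a striatal tissue label. Distances run from the TAPE centre to the start site in the deposited Rn6 table. GRCr8 positions are given for RefSeq sequences only and were not joined to Rn6 positions. Members, gene lists and cell type markers were chosen with earlier results of these data known. Named TAPEs were the 8 with the highest cortical mean, the 8 with the largest ratio of cortex to the next region (0.05 CPKM added to both), those called for KCl or with the 2 smallest p in a region with no call, the 3 largest groups, the 3 on each side of the limit, and those within 100 kb of a listed gene. Named genes were up to 2 within 100 kb of these TAPEs, the 10 called higher and the 3 called lower with the largest differences, and others where the text says that they were named after their values were seen. Alternatives were other pseudocounts (0.02 and 0.1), floors, folds, reaches, centring on library medians, limma voom on the recovered reads, a single fit of 6 groups, a replicate block and leaving out each library. Some items are not reported here and remain in the counts.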

Additional observations from a re-analysis of the deposited data

Results flagged for a closer look

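Single libraries stood apart at 7 of the named members, among 75 groups of 6 or 7 libraries examined, where chance marks about 1 group in 20. At the Ezh2 TAPE on chromosome 4, striatum vehicle replicate 8 was highest with 0.605 CPKM, with 0.435 next. At the Mpped1 TAPE, cortex vehicle replicate 3 was highest with 1.19 CPKM, with 0.830 next, and this is the library whose tissue label says striatum. At the Ptprd TAPE 156 kb from the start site, hippocampus KCl replicate 2 was lowest with 0.0113 CPKM, with 0.122 next. At the Tshz2 TAPE 59.0 kb from the start site, striatum vehicle replicate 6 was highest with 0.0857 CPKM, with 0.0317 next.

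In the remaining cases every other library of the region was at 0, and a value stands for a few reads. On chromosome 13, the TAPE starting at 87302516 had 0.0174 CPKM in striatum KCl replicate 7, and the one starting at 87393096 had 0.0187 in hippocampus vehicle replicate 2. The Neurod6 TAPE 26.7 kb from the start site had 0.0126 CPKM in striatum vehicle replicate 2.

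The response of the Ezh2 TAPE to KCl differed between regions (limma F-test of the interaction, adjusted p = 2.06e-05), with log2 changes of 2.22 in cortex, 1.95 in hippocampus and -0.15 in striatum. The 503 TAPEs below the level floor at 10 to 100 kb from a member, which the tests across TAPEs did not use, gave a ratio of cortex to the other libraries of 1.59 in summed reads per 1000000 library reads.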

How the results depend on the processing

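Among the settings tried, no result that passed a test changed direction. The median KCl change over members turned from -0.0753 to 0.0226 in hippocampus and from -0.0527 to 0.0663 in striatum when libraries were centred on their median. The number of TAPEs chosen was 569 with a 1.5-fold limit, 86 with a 3-fold limit, 64 with a floor of 0.05 CPKM, 756 with a floor of 0.01 and 434 from KCl libraries alone, and 234 to 288 without 1 library. Members called for KCl in cortex were 1 as reported, 0 with no filter on low TAPEs, 2 in a single fit of 6 groups and 0 to 1 without 1 library. In hippocampus they were 1 with a floor of 0.05 CPKM, with centred libraries and in the single fit, and in striatum 1 with centred libraries, at the TAPE 864 kb from Arl6. The interaction gave 2 with limma voom on recovered reads. Genes higher in cortex were 37 within 50 kb, 147 within 250 kb and 20 near members of at least 0.05 CPKM, and genes changed by KCl were 26 within 50 kb and 174 within 250 kb. The share of members with another nearby was 32.1% at 50 kb, 44.2% at 500 kb and 49.8% at 1 Mb. TAPEs chosen in vehicle and called in KCl libraries numbered 7 to 16 without 1 library, and those chosen in KCl and called in vehicle libraries 20 to 36. The median member held 67 reads over 19 libraries, which limits what single members can show.

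Vehicle and KCl libraries of cortex and hippocampus carry the same replicate numbers, and striatum shares none. Deviations of same-numbered libraries correlated at -0.017 to 0.014, and not every library correlated best with its own number. Most TAPEs held few reads per library, so such low correlations cannot show whether same-numbered libraries share a culture. With the replicate number as a block, the count of members called for KCl was 0 in cortex and 0 in hippocampus.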
